A study of Homo sapiens with 2 samples.

Results

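The 40 genes described here were selected by symbol from the gene tables of HSC-3 cells. They comprised 4 genes of the oxygen-sensing machinery, 14 marker genes of hypoxia-inducible factor (HIF) and 22 genes of glucose transport and glycolysis, out of 60616 genes in all. The list was drawn up with a result of the same data known, namely that DDIT4 was strongly lower with FIN56, so the ratio of DDIT4 is a description only. HSC-3 is an established human head and neck squamous cell carcinoma (HNSCC) line, and FIN56 is an inducer of ferroptosis, a form of cell death driven by iron and lipid peroxidation. It lowers the protein level of the lipid peroxidase GPX4. RNA-seq was performed on 1 library of HSC-3 cells given 0.1% DMSO, the solvent, and on 1 library of HSC-3 cells given 1 µM FIN56 for 48 h. Neither label names a genetic change, and the labels give a time for the FIN56 library only. The study used these cells to ask which genes respond to sublethal ferroptotic stress.

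With 1 library per condition there is no replicate check, and no p-value is given. Each difference is the ratio of the deposited FPKM values (fragments per kilobase of transcript scaled to the mapped fragments of the library), FIN56 over DMSO. A ratio of 1.5 or more was called higher and a ratio of 1/1.5 or less was called lower, after the fold change of the study. Genes were tested when both libraries held an FPKM above 0 and at least 10 expected counts, which left 17372 genes and all 40 of the list. The expected counts summed to 70184517 for DMSO and 73062209 for FIN56. Beside the FPKM ratio stands the ratio of the expected counts scaled by these totals, with its exact Clopper-Pearson 95% interval. The interval covers counting error only and compares 2 libraries, not 2 conditions. No molecular identifiers are named for these libraries, so several reads may stem from 1 molecule. The share of mitochondrial counts was 4.77% with DMSO and 5.75% with FIN56. In bulk RNA, fewer cells of a type and less RNA per cell cannot be told apart.

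The identity of the cells was checked with markers. All 8 squamous epithelial markers (EPCAM, CDH1, KRT5, KRT14, KRT17, KRT6A, TP63 and SFN) were detected, with KRT5 at an FPKM of 2078 with DMSO and 1647 with FIN56. Over the 8 markers the FPKM ratio ran from 0.781 to 1.44. The leukocyte markers PTPRC and CD3E were at 0 counts in both libraries, although the lysosomal gene CD68, which is not restricted to leukocytes, was at an FPKM of 57.3 with DMSO and 24.6 with FIN56, a ratio of 0.429. CSF1R was at 0.47 and 0.49. No endothelial marker (PECAM1, VWF, CDH5, KDR and TEK) exceeded an FPKM of 0.08. Of the fibroblast markers, COL1A2 was at 0 in both libraries, COL3A1 had 0 and 1 counts, and COL1A1 was at an FPKM of 4.25 with DMSO and 2.19 with FIN56. DCN, LUM and PDGFRA stood at an FPKM of at most 0.50. The summed FPKM of the 6 fibroblast markers was 5.06 and 2.93, and whether this bears on the values below was not tested.

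HIF is a transcription factor made of an oxygen-sensitive alpha subunit, encoded by HIF1A or EPAS1, and the stable partner ARNT. In the presence of oxygen and iron, prolyl hydroxylases of the EGLN family mark the alpha subunit for recognition by VHL and destruction by the proteasome, so that the subunits are controlled mainly as proteins and not by their transcripts. Stabilized HIF binds short elements with the core RCGTG and raises genes of glucose uptake, glycolysis, mitophagy, pH control and blood vessel growth. The mark of glycolysis in carcinoma cells is that glucose is turned to lactate even where oxygen is present. Some target genes also feed back on the pathway, among them the hydroxylases EGLN1 and EGLN3.

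The promoters of the list were examined for the core of the HIF element, because many of these genes are classic HIF targets. The promoter windows run from 250 bases before to 50 bases after each start site in RefSeq on GRCh38.p14. Windows were found for 36 of the 40 genes, and none was used for VEGFA, NDRG1, BNIP3L and SLC2A3. The letters ACGTG or GCGTG, searched on both strands, were present in 34 of the 36 genes (94.4%), in 68.7% of the genes tested that had a window and in 52.4% of all genes with a window. A gene with several start sites had several windows and was counted once if any of them held the letters. Among genes with 1 window, the letters were present in 21 of 23 genes of the list (91.3%) and in 63.2% of the genes tested. Only EGLN3 and PGAM1 had no match in their windows. ACGTG alone was present in 22 genes of the list (61.1%) and in 31.7% of the genes tested. This motif overlaps the E-box CACGTG, the site of MYC and USF factors. The E-box was present in 9 genes of the list (25%) and in 12.2% of the genes tested. A match is a description of sequence, and no factor binding was measured here.

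The windows of the 3 HIF markers called lower and of the 1 called higher with FIN56 are shown, 5′ to 3′ on the strand of the gene. Capitals mark ACGTG or GCGTG, or their reverse complements CACGT and CACGC. The DDIT4 window is chr10:72273674-72273973 on the plus strand, the BNIP3 window is chr10:131981874-131982173 on the minus strand, the CA9 window is chr9:35673678-35673977 on the plus strand, and the ANGPTL4 window is chr19:8363905-8364204 on the plus strand.
DDIT4: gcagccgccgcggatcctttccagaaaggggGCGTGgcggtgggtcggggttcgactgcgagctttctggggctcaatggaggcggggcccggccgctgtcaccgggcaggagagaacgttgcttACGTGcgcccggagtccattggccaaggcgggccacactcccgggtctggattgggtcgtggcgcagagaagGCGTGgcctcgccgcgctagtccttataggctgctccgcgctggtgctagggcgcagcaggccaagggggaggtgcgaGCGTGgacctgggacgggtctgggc
BNIP3: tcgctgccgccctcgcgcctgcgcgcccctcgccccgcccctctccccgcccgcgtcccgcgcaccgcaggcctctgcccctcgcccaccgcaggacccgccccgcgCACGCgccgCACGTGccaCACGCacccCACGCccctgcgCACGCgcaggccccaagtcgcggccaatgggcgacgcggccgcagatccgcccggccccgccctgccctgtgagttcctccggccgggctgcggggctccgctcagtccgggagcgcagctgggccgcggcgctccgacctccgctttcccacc
CA9: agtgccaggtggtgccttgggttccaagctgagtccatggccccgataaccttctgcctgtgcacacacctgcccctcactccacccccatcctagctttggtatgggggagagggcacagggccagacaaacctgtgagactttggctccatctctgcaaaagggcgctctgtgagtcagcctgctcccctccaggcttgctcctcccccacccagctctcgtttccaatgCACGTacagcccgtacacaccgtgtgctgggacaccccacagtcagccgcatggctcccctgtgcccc
ANGPTL4: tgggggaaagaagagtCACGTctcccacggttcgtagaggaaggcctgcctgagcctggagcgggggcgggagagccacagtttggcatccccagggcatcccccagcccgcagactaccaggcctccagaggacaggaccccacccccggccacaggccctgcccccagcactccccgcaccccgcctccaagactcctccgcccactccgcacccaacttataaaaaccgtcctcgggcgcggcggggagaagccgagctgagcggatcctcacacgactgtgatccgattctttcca
DDIT4 carried 4 matches, which began at positions -219, -125, -53 and 26, counted with the start base as 1 and the base before it as -1. BNIP3 carried 6 matches between positions -143 and -104, of which the pair at -134 and -133 overlap in 1 E-box. CA9 carried 1 match at -18 and ANGPTL4 carried 1 match at -234. Of the glycolytic genes called lower, PFKFB4 carried GCGTG at -166 and ENO2 carried ACGTG at -118. Genes called lower and the gene called higher thus shared the letters, as did most of the genes that were called neither way.

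Across the list, 5 genes were called lower with FIN56 and 1 was called higher. The lower genes were the HIF markers DDIT4, CA9 and BNIP3 and the glycolytic genes PFKFB4 and ENO2, and the higher gene was the HIF marker ANGPTL4. Over all genes tested, 11.1% were called lower and 7.62% were called higher, so the share of lower genes in the list was near this background. That share counts DDIT4, which was known to be lower when the list was drawn up. With an FPKM of at least 1 required in both libraries, 37 genes of the list were left, with 5 lower and 0 higher, against 6.77% and 3.87% of all genes so filtered. Under that filter the share of lower genes lay above the background, on 5 genes with DDIT4 among them, so the reading depended on the filter. The median log2 FPKM ratio was -0.07 over the list and 0.01 over all genes tested. The counting interval lay below 1 for 23 genes, above 1 for 10 and included 1 for 7. Over all genes tested the interval lay below 1 for 31% and above 1 for 31.3%, and it included 1 for 6536 of the 17372 genes. An interval narrows as counts rise, and many genes of the list are abundant. These shares thus depend on counts as well as on direction and are not directly comparable. On the deposited rlog scale, which shrinks differences, 1 gene was called lower and 0 higher. Relative to GAPDH, which was itself lower with FIN56, 1 was called lower and 9 higher. In both cases the gene called lower was DDIT4, with a ratio of 0.653 on the rlog scale and 0.507 relative to GAPDH.

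**Figure D1:**
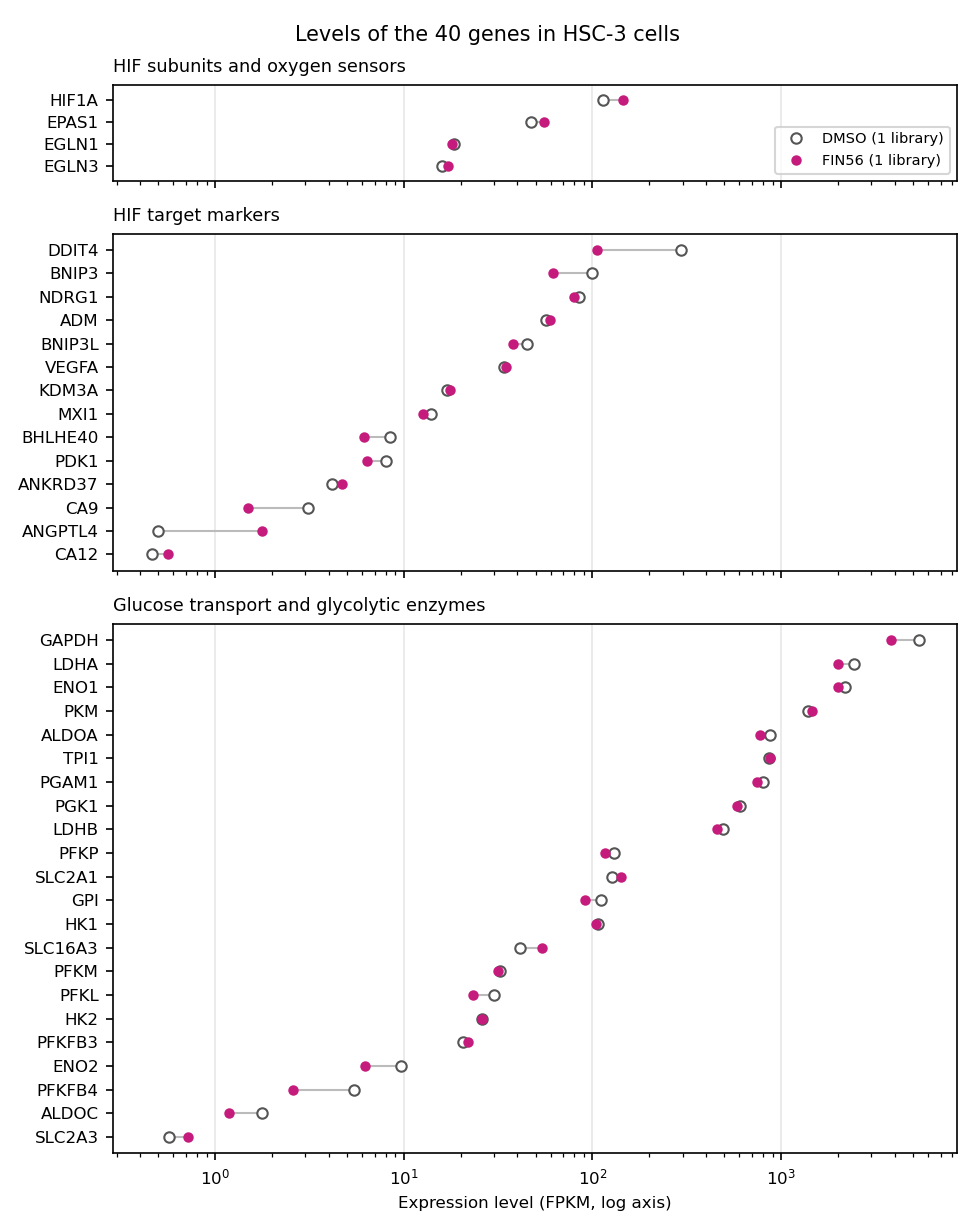
Expression level (FPKM, log axis) of each of the 40 genes in the DMSO library (open circles) and the FIN56 library (filled circles), 1 library each, grouped by role and ordered by level. Most pairs lie close together, whereas DDIT4 went from 294 to 106, GAPDH from 5355 to 3799 and ANGPTL4 from 0.50 to 1.78.

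The HIF markers and the glycolytic genes had close medians. The median log2 FPKM ratio was -0.12 over the 14 HIF markers and -0.10 over the 22 glycolytic genes, a difference of -0.02. The FPKM ratios ran from 0.359 to 3.56 among the HIF markers, or from 0.481 without DDIT4, on which the list was selected, and from 0.475 to 1.31 among the glycolytic genes. The low ends were thus alike without DDIT4, and the higher top of the markers was ANGPTL4 alone. Of the HIF markers 3 were called lower and 1 higher, and of the glycolytic genes 2 were called lower and 0 higher. Without DDIT4 the median of the markers was -0.10. Over the 7 markers and 8 glycolytic genes whose expected counts were whole numbers in both libraries as deposited, to 2 decimals, the medians were 0.05 and -0.05 and the difference was 0.09, so the sign of the markers' median depended on which genes were counted.

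**Figure D2:**
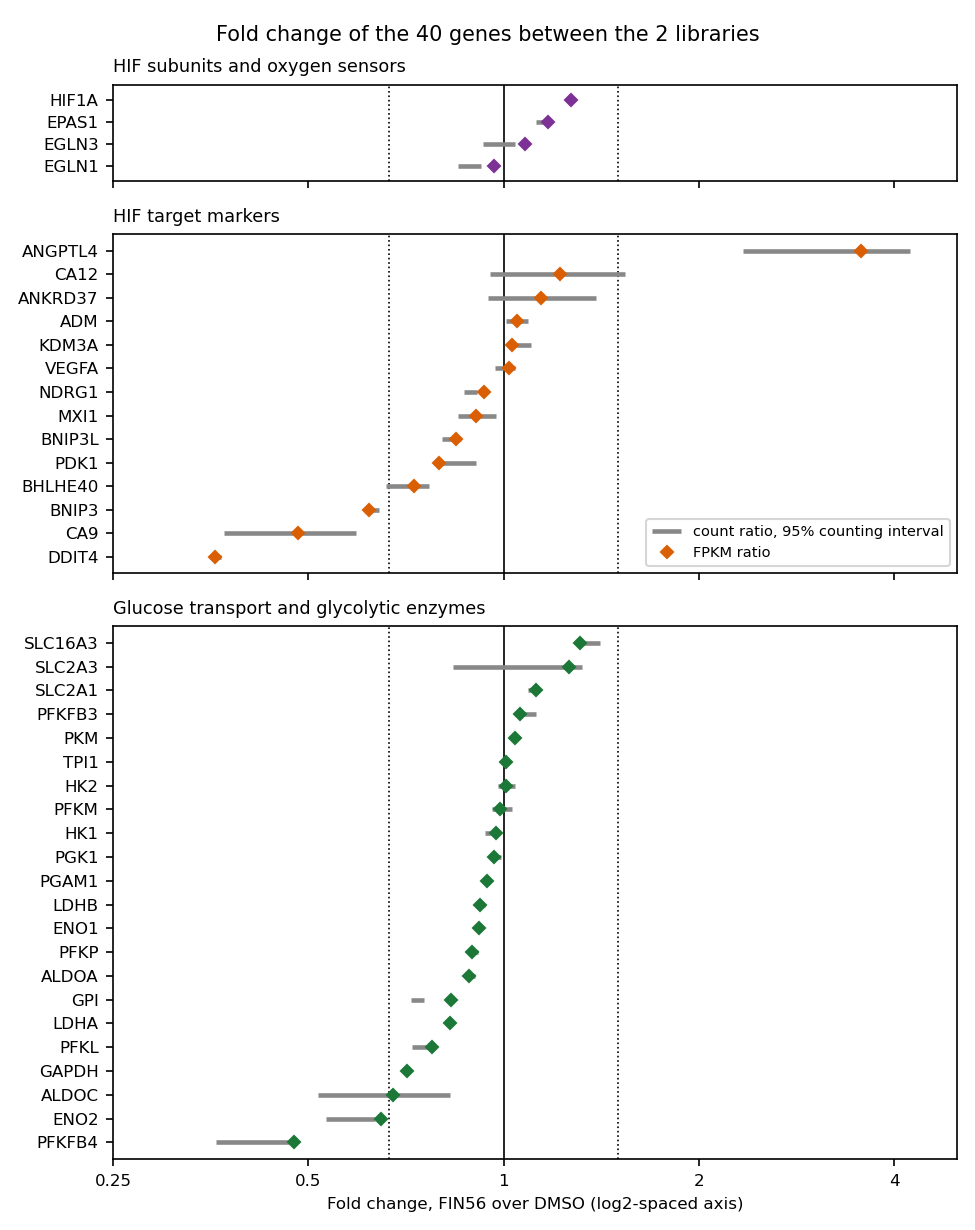
FPKM ratio of FIN56 over DMSO (diamonds) and the exact 95% counting interval of the scaled count ratio (bars) for each gene, on a log2-spaced axis, with dotted lines at 1.5 and 1/1.5. DDIT4 (0.359), CA9 (0.481) and BNIP3 (0.620) among the HIF markers and PFKFB4 (0.475) and ENO2 (0.648) among the glycolytic genes lie left of the dotted lines, and ANGPTL4 (3.56) lies right of them.

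Among the oxygen-sensing genes, the transcripts of both alpha subunits were higher with FIN56 and neither passed the threshold. HIF1A was at an FPKM of 114 with DMSO and 145 with FIN56, a ratio of 1.27 (count ratio 1.27, with an interval above 1). The exons of HIF1A overlap the antisense genes HIF1A-AS1 and HIF1A-AS3. Its relative EPAS1, which encodes the HIF-2 alpha subunit, was at 47.4 and 55.2, a ratio of 1.17. HIF1A made up 70.6% of the summed FPKM of the pair with DMSO and 72.4% with FIN56, so the balance of the subunits was nearly the same in both libraries. The hydroxylase EGLN1 was at 18.6 and 17.9, a ratio of 0.965, and EGLN3, whose transcript is itself a HIF target, was at 15.9 and 17.1. The FPKM ratio of EGLN3 was 1.08 and its count ratio was 0.984 (interval 0.930 to 1.04), with an estimated effective length of 2148 bases with DMSO and 1960 with FIN56, so its direction depended on the unit.

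The other components of the pathway had FPKM ratios from 0.857 to 1.27, with 6 genes below 1 and 6 above. Of 13 such genes 12 were tested, and none was called in either direction, with a median log2 FPKM ratio of 0.01. VHL, which recognizes hydroxylated HIF, was at 8 with DMSO and 7.60 with FIN56. ARNT, the partner of the alpha subunits, was at 13.7 and 11.8, and HIF1AN, the asparaginyl hydroxylase that blocks HIF activity, was at 22.1 and 18.9. Above 1 were ARNT2 at a ratio of 1.27, CITED2 at 1.24, and ELOC and CREBBP at 1.23 each. CUL2, the scaffold of the VHL ligase, was at an FPKM of 28.6 and 36.1. HIF3A was at 0 counts in both libraries, which leaves room for up to 3 counts.

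DDIT4 (also called REDD1) stood out among the HIF markers. The gene lies at chr10:72273919-72276036 on the plus strand of GRCh38 and has 3 exons, and its product restrains mTORC1 in hypoxia, energy stress and other stresses. The DMSO library held it at an FPKM of 294 (32404 expected counts) and the FIN56 library at an FPKM of 106 (12123 expected counts). The FPKM ratio was 0.359 and the count ratio 0.359 (interval 0.352 to 0.367), a level 2.78-fold lower with FIN56. It ranked 168 from the lowest ratio among the 17372 genes tested. With DMSO it was the most abundant of the 14 HIF markers, and with FIN56 it was still the most abundant of them.

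Of the remaining restraints of mTORC1 and sensors of glucose, the tested genes did not share the size of this difference. Of 14 such genes 12 were tested, with 1 called lower, 0 called higher and a median log2 FPKM ratio of -0.11. The FPKM ratio lay below 1 for 8 of them and above 1 for 4. The 8 were SESN1, SESN2, SESN3, TSC1, TSC2, AKT1S1, PRKAA1 and PRKAA2, so each tested restraint of mTORC1 lay below 1. The 4 were TXNIP, ARRDC4, MLX and MLXIP, on the side of glucose sensing. By count ratio, TSC1 (1.05) and MLXIP (0.858) lay on the other side of 1. The gene called lower was SESN3, a sestrin, at an FPKM of 0.64 with DMSO and 0.38 with FIN56. TSC2 was not called, at an FPKM of 12.5 and 9.06, a ratio of 0.722 with a count ratio of 0.576 (interval 0.540 to 0.615). SESN2, a sestrin induced by many stresses, was at 9.10 and 9.04, a ratio of 0.993. The paralog of DDIT4, DDIT4L, had 1 count in each library. DEPTOR was too low to be tested, with 13 counts with DMSO and 4 with FIN56 (count ratio 0.296, interval 0.0702 to 0.957). TXNIP, which is raised by glucose through the MLX factors, was at 87.9 and 102, and its relative ARRDC4 was at 8.31 and 11.9, a ratio of 1.43. DDIT4 is also raised by glucocorticoids. Of 8 glucocorticoid-induced genes 7 were tested and none was called, with a median log2 FPKM ratio of 0.05. Among them TSC22D3 was at 16.2 and 12.4, and FKBP5 was at 4.45 and 4.62. Whether glucocorticoids bear on the ratio of DDIT4 was not tested.

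Of the carbonic anhydrases, which handle acid at the cell surface, CA9 was called lower and CA12 was not called. CA9, a classic HIF marker at chr9:35673928-35681159 on the plus strand, was at an FPKM of 3.10 with DMSO and 1.49 with FIN56, a ratio of 0.481 on expected counts of 225 and 110 (count ratio 0.468, interval 0.370 to 0.592). Its exons overlap ARHGEF39 on the other strand. CA12 was at 0.46 and 0.56, and its interval of 0.953 to 1.54 included 1, so no difference was detectable at this depth.

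The mitophagy receptors BNIP3 and BNIP3L both had lower values with FIN56, and BNIP3 passed the threshold. BNIP3, at chr10:131967684-131981967 on the minus strand, was at 99.8 with DMSO and 61.9 with FIN56, a ratio of 0.620 (count ratio 0.626, interval 0.611 to 0.642). BNIP3L was at 44.9 and 37.9, a ratio of 0.844. The genome holds copies of BNIP3, and 39 such gene rows held 33 counts with DMSO and 41 with FIN56, equal to 0.212% and 0.409% of its own counts. Counting them with BNIP3 gave a count ratio of 0.628, so the copies made little difference.

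ANGPTL4, a secreted inhibitor of lipoprotein lipase that is also a target of PPAR factors, was the only gene of the 40 called higher. It lies at chr19:8363289-8374370 on the plus strand and has 7 exons. It was at an FPKM of 0.50 on 62 counts with DMSO and 1.78 on 202 counts with FIN56, a ratio of 3.56 (count ratio 3.13, interval 2.34 to 4.23). It ranked 68 from the highest ratio among the genes tested, and its level was below those of the other HIF markers except CA12 in both libraries and CA9 in the FIN56 library.

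The other secreted and signalling markers were close to equal. VEGFA, the main factor of blood vessel growth, was at an FPKM of 34.1 with DMSO and 34.9 with FIN56, and its count interval of 0.971 to 1.04 included 1. ADM, which encodes the vasodilator adrenomedullin, was at 56.5 and 59.2, a ratio of 1.05. NDRG1, a stress-induced differentiation gene, was at 85.04 and 79.42, a ratio of 0.934. Among these 3 markers, which are abundant in both libraries, no ratio departed from 1 as far as those of DDIT4, BNIP3 or CA9.

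Of the nuclear markers, BHLHE40 differed the most. This repressor of the circadian and hypoxic response was at an FPKM of 8.43 with DMSO and 6.14 with FIN56, a ratio of 0.728 (count ratio 0.710, interval 0.659 to 0.766), and its exons overlap BHLHE40-AS1. MXI1, an antagonist of MYC, was at 13.9 and 12.7, a ratio of 0.908. The histone demethylase KDM3A was at 16.9 and 17.5, a ratio of 1.03. ANKRD37, a small ankyrin repeat gene, was at 4.15 and 4.72 with an interval of 0.946 to 1.39. Of the mitochondrial enzymes, PDK1, the kinase that keeps pyruvate out of the citric acid cycle, was at an FPKM of 8 and 6.36, a ratio of 0.795, whereas its count ratio was 0.853 (interval 0.800 to 0.908).

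A longer list of hypoxia-induced genes gave a similar mixture. Of 26 such genes 24 were tested, with 3 called lower, 1 called higher and a median log2 FPKM ratio of 0.01. LOX, which crosslinks collagen, was at an FPKM of 2.17 with DMSO and 1.00 with FIN56, a ratio of 0.461. TF was also called lower, with 10 and 11 counts, whose FPKM of 0.02 and 0.01 is rounded too coarsely to carry a direction, since its count ratio was 1.06. STC2, a secreted glycoprotein, was higher at 19.5 and 31.4, a ratio of 1.61, with a count ratio of 1.37. Of the collagen hydroxylases in the list, P4HA1 had an FPKM ratio of 1.11, P4HA2 of 1.23, PLOD2 of 1.06 and PLOD1 of 0.939.

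**Figure D3:**
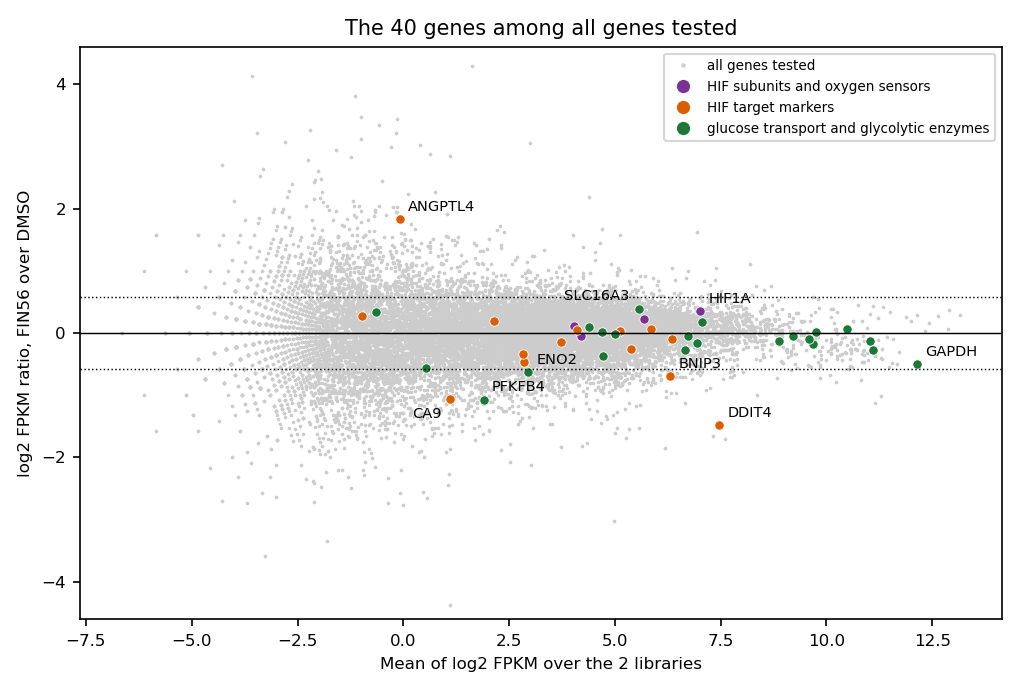
Log2 FPKM ratio of FIN56 over DMSO against the mean log2 FPKM of the 2 libraries for the 17372 genes tested (grey) and the 40 genes (coloured by role), with dotted lines at the thresholds. DDIT4 lies apart from most genes of its level, and ANGPTL4 lies among low genes, where grey points spread widely.

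The glycolytic genes together took 2.34% of the summed FPKM of all genes with DMSO and 2.04% with FIN56. Their own summed FPKM was 15635 and 13322, a ratio of 0.852, and without GAPDH, the most abundant of them, it was 10279.8 and 9523, a ratio of 0.926. Of the 22 genes, 15 had an FPKM ratio below 1 and 7 above 1. The interval of the count ratio lay below 1 for 14 genes, above 1 for 5 and included 1 for 3. GAPDH thus made up the larger part of the difference in the sum.

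Genes at the entry and exit of the pathway had ratios above 1. SLC2A1, the main glucose transporter of carcinoma cells (GLUT1), was at an FPKM of 126 with DMSO and 142 with FIN56, a ratio of 1.12 (count ratio 1.11, interval 1.09 to 1.13). SLC2A3 was at 0.57 and 0.72, with a count interval of 0.836 to 1.32, so SLC2A1 supplied 99.6% and 99.5% of the summed FPKM of these 2 transporters. The lactate exporter SLC16A3 (MCT4) was at 41.3 and 54.1, a ratio of 1.31 (count ratio 1.37, interval 1.32 to 1.41), the largest among the glycolytic genes, and its exons overlap CSNK1D on the other strand. Its chaperone BSG, a gene outside the list, was at 315 and 410.3, a ratio of 1.3.

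The hexokinases, which trap glucose in the cell, were nearly the same in both libraries. HK1 was at an FPKM of 107 with DMSO and 105 with FIN56, and HK2, the form raised by HIF in many tumors, was at 25.8 and 26.0 with a count interval of 0.980 to 1.04. HK1 supplied 80.6% and 80.1% of their summed FPKM. Neither the levels nor the balance of the hexokinase transcripts thus differed by much.

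The steps from hexose phosphate to triose phosphate had a median FPKM ratio of 0.885 over 7 genes. GPI, the isomerase, was at an FPKM of 111 with DMSO and 91.8 with FIN56, a ratio of 0.828, and its count ratio was 0.737 (interval 0.720 to 0.754). Among the phosphofructokinases, PFKL was at 30.1 and 23.3 (ratio 0.774), PFKM at 32.2 and 31.7 (ratio 0.986) and PFKP at 130.1 and 116 (ratio 0.895). PFKP supplied 67.6% and 67.9% of the phosphofructokinase FPKM, while the share of PFKL was 15.7% and 13.6%. ALDOA was at 874 and 773, a ratio of 0.885. ALDOC was at 1.76 and 1.19, a ratio of 0.676 that fell just short of the threshold. On 182 and 124 counts, the count ratio of ALDOC was 0.654 (interval 0.517 to 0.827), which is past the threshold. TPI1, the triose phosphate isomerase, was at 861 and 873, a ratio of 1.01.

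The regulators of phosphofructokinase, PFKFB3 and PFKFB4, set the level of its allosteric activator, and their ratios lay on opposite sides of 1. PFKFB4, a HIF target at chr3:48517684-48562015 on the minus strand, was at an FPKM of 5.43 with DMSO and 2.58 with FIN56, a ratio of 0.475 on 775 and 331 counts (count ratio 0.410, interval 0.360 to 0.467). Its exons overlap UCN2 on the same strand, and its expected counts as deposited were not whole numbers. PFKFB3 was at 20.5 and 21.8, a ratio of 1.06 (count ratio 1.08, interval 1.04 to 1.12). The share of PFKFB4 in the summed FPKM of the pair was 20.9% with DMSO and 10.6% with FIN56. PFKFB2, a gene outside the list, was at 7.36 and 5.95, a ratio of 0.808.

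The steps from triose phosphate to pyruvate held the most abundant transcripts, and their median FPKM ratio over 6 genes was 0.929. GAPDH, which is often used as a reference gene, was at an FPKM of 5355 with DMSO and 3799 with FIN56, a ratio of 0.709 on 436967 and 321727 counts (count ratio 0.707, interval 0.704 to 0.711). It lies at chr12:6534512-6538374 and was not called, since 0.709 is above 1/1.5. The 65 GAPDH pseudogenes held 592 and 454 counts, which is 0.135% and 0.141% of those of GAPDH, and counting them with GAPDH left the count ratio at 0.707. PGK1 was at 607 and 586 (ratio 0.965), PGAM1 at 797 and 749 (ratio 0.941) and PKM at 1394 and 1455 (ratio 1.04).

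The enolases differed from each other. ENO1, the ubiquitous form, was at an FPKM of 2186 with DMSO and 2006 with FIN56, a ratio of 0.917. ENO2, the form of neurons that hypoxia also raises, lies at chr12:6913745-6923698 on the plus strand and was at 9.61 and 6.23, a ratio of 0.648 (count ratio 0.581, interval 0.532 to 0.633). ENO2 supplied 0.438% and 0.310% of the summed FPKM of ENO1 and ENO2, so its difference hardly touched that sum. ENO3, a gene outside the list, was at 11.1 and 11.5, a ratio of 1.04.

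Lactate dehydrogenase, which turns pyruvate to lactate, was modestly lower with FIN56 in both forms. LDHA, a classic HIF target, was at an FPKM of 2425 with DMSO and 2004 with FIN56, a ratio of 0.826 (count ratio 0.819, interval 0.814 to 0.824). LDHB was at 494 and 455, a ratio of 0.921. LDHA supplied 83.1% and 81.5% of their summed FPKM.

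**Figure D4:**
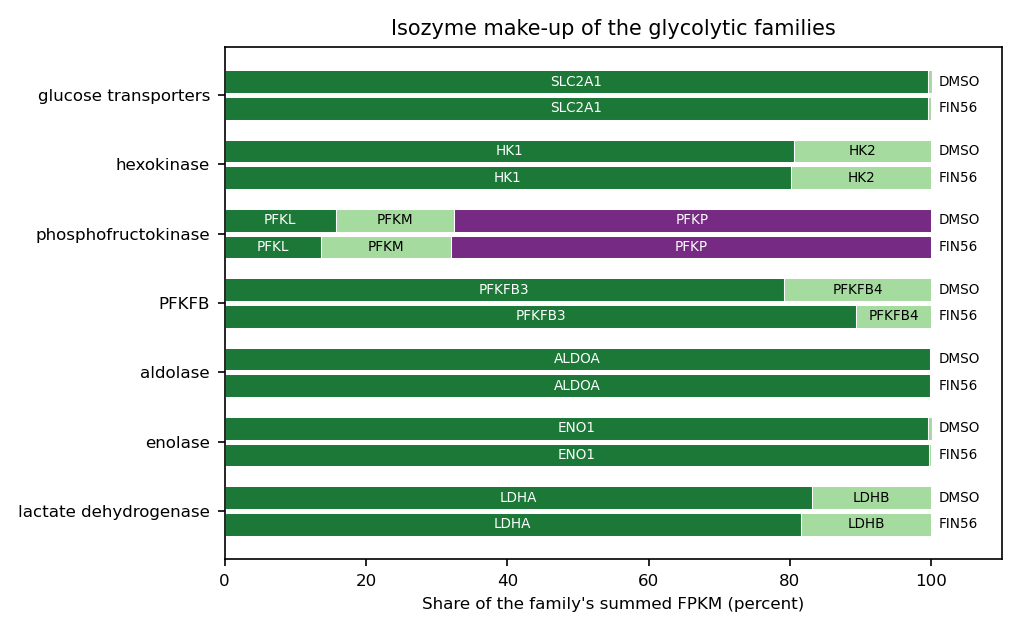
Share (percent) of each isozyme in the summed FPKM of its family's listed isozymes, in the DMSO library (upper bar) and the FIN56 library (lower bar). Isozymes outside the list, among them PFKFB2 and ENO3, are left out of the sums. The make-up was nearly the same in both libraries except in the PFKFB pair, where PFKFB4 went from 20.9% to 10.6%.

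Isozymes outside the list were examined as well. Of 27 further glycolytic isozymes and regulators 16 were tested, with 1 called lower, 1 called higher and a median log2 FPKM ratio of 0.11. The glucose transporter SLC2A12 was lower at an FPKM of 2.43 with DMSO and 1.47 with FIN56, a ratio of 0.605. FBP1, the gluconeogenic enzyme that opposes phosphofructokinase, was higher at 0.19 and 0.48 on 14 and 32 counts (count ratio 2.2, interval 1.14 to 4.45). HK3, PGK2 and PKLR were at 0 counts in both libraries.

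Genes that carry sugar phosphate and pyruvate away from glycolysis were described against the same background of 11.1% lower and 7.62% higher over all genes tested. Of 8 pentose phosphate genes, all of them tested, 2 were called lower, 0 higher, and the median log2 FPKM ratio was -0.16. PGLS was at an FPKM of 43.8 with DMSO and 26.8 with FIN56, and PGD, which makes NADPH, was at 136 and 89.4, a ratio of 0.657. RPIA, which isomerizes ribose phosphate, went the other way at 11.5 and 16.7, a ratio of 1.46 that was not called. Of 13 genes for the entry of pyruvate into mitochondria 12 were tested, with 2 called lower, 0 higher and a median of -0.07. PC, the pyruvate carboxylase, was at 19.7 and 13.0, and the phosphatase PDP2 was at 5.30 and 2.61, a ratio of 0.492 with a count ratio of 0.708. PDHX, a component of the pyruvate dehydrogenase complex, was at 23.2 and 29.0, with a count ratio of 1.29.

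Whether the counting used the strand of the reads is not given in the sources used here, so values of genes whose exons overlap a gene on the other strand are uncertain to that extent. Of the 40 genes, 37 kept their direction in all of 6 other units and scalings, and EGLN3, PFKM and PGK1 changed it in at least 1.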

How the data were processed

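RNA-seq was performed on poly(A) RNA of 1 DMSO and 1 FIN56 library of HSC-3 cells (Illumina TruSeq Stranded mRNA kit). The methods of the study, stated for tumor samples, were taken to hold for the cell line: reads were trimmed with AfterQC, aligned with STAR 2.6.1a to GRCh38 and quantified with RSEM 1.3.1. Of the deposited tables, the expected counts carry no normalization and were rounded to whole numbers here. The authors scaled FPKM for effective length and library size and kept 2 decimals. The deposited TPM differ from FPKM by 1 factor per library, so that each TPM ratio was about 1.02 times the FPKM ratio. The authors' rlog table, made with DESeq2 1.26.0, holds log2 values shrunk between the libraries.

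FPKM ratios and Clopper-Pearson intervals were computed with Python 3.11.15 and scipy 1.17.1, and other scalings with edgeR 4.0.16 and DESeq2 1.42.0 in R 4.3.3. The calculation was tested on simulated data. Gene positions and exon overlaps came from GENCODE release 44 on GRCh38, a later annotation than the one used by the authors, which held 99.7% of the gene IDs. Promoters came from RefSeq. All genes of the list are named. Of the other lists, genes past the fold threshold follow the rule fixed with them, and further genes were chosen after their values were seen. Members and lists were chosen with earlier results of these data known. A few genes of the other lists are counted but not reported here by name.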

Additional observations from a re-analysis of the deposited data

How the results depend on the processing

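No paired analysis was possible because there is a single library of each kind, so leaving out a replicate could not be run either. The count of genes called lower (5) was 1 with rlog, 1 of 17 genes with whole counts, 1 relative to GAPDH, 10 at a threshold of 5/4 and 3 at a threshold of 2. It was 6 with scaled counts, where ALDOC passed the threshold, and 4 with 1 FPKM added to each value. The count called higher (1) was 0 with rlog, 0 of the 37 genes whose FPKM reached 1 in both libraries, 9 relative to GAPDH and 4 at a threshold of 5/4. Scaling to GAPDH, chosen after seeing the data, moves the median of all genes by 0.50 on the log2 scale. The median of the glycolytic genes (-0.10) was -0.07 with TPM, -0.07 with DESeq2 size factors, -0.03 with rlog and -0.05 over genes with whole counts. Over genes with whole counts the median of the HIF markers (-0.12) was 0.05 and the difference of the medians (-0.02) was 0.09. The summed level of the glycolytic genes (0.852) was 0.871 with TPM, 0.869 with scaled counts and 0.926 without GAPDH, and the 34 genes with a promoter match became 22 with ACGTG only (all 4 added after seeing the data). Of 373 values of single genes under alternatives, 245 moved by less than their counting error, 128 by more, and 0 called genes changed sign. The 245 include 40, 37 and 17 values under filters of genes, which repeat the main value and could not move. On the rlog scale the ratio was 0.653 for DDIT4, 0.773 for PFKFB4, 0.880 for CA9, 0.827 for BNIP3, 0.831 for ENO2 and 1.18 for ANGPTL4. The cause of these shifts was not tested.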
